A study of Mus musculus with 12 samples.

Results

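The genes described here encode the 3 beta subunits of the sodium-potassium ATPase, Atp1b1, Atp1b2 and Atp1b3, and the 4 plasma membrane calcium ATPases, Atp2b1, Atp2b2, Atp2b3 and Atp2b4. They were taken by symbol from an expression table of whole mouse cochleae, and all 7 were found among its 23945 readable genes. All 7 also passed the filter for testing, a mean of at least 0.5 FPKM (fragments scaled to transcript length and to the mapped reads of the library) over the libraries, which left 16276 genes. No value of these data entered the choice by symbol, but results of the same libraries were known when the set was drawn up.

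RNA-seq was performed on 12 cochlear libraries, 3 in each of 4 groups, to compare the cochlea with and without the MAP kinase phosphatase DUSP1. The groups were Dusp1+/+ (WT) mice of 20 weeks (libraries E1, E3 and E4), Dusp1-/- (KO) mice of 20 weeks (E7, F18 and F19), WT mice of 32 weeks (F1, F10 and F12) and KO mice of 32 weeks (F5, F6 and F27). All 4 groups share the mixed 129S2/SvPas:C57BL/6 background and received no treatment, and both sexes were used. Each library has its own animal code, and neither labels nor methods say whether a library holds 1 or both cochleae, so p-values measure the spread between these libraries. The knockout affects every cell type of the animal, and a whole cochlea mixes sensory, neural, strial, bone and blood cells, in which fewer cells of a type and less RNA per cell cannot be told apart.

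The sodium-potassium ATPase moves sodium out of and potassium into the cell, and each working pump pairs a catalytic alpha subunit with a glycosylated beta subunit that carries it to the membrane. In the cochlea this pump is best known from the basolateral membrane of strial marginal cells and from fibrocytes of the lateral wall, where it drives the potassium cycle behind the endocochlear potential, and from spiral ganglion neurons. Plasma membrane calcium ATPases (PMCA) push calcium out of the cell, and PMCA2, the product of Atp2b2, is the pump of outer hair cell stereocilia, whose loss deafens mice.

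The libraries were not alike in ways that touch these genes. Library E1 stood apart in a list of 16 brain and brainstem markers, which summed to 323 FPKM in E1 and to 83.4 to 181 FPKM in the other libraries. It held the highest value of 12 of the 16, with Gabra6, a GABA receptor subunit of cerebellar granule cells, at 43.0 FPKM against 0 to 0.266 FPKM elsewhere and Neurod1 at 27.5 against 0.206 to 0.442 FPKM. Of these 16 markers, Slc6a5 alone had a mean under 0.5 FPKM. A list of 10 neutrophil markers summed to 4127 to 22770.1 FPKM in KO against 70.1 to 676 FPKM in WT at 20 weeks, and at 32 weeks to 891 to 16705 FPKM in KO against 683 to 4589.7 FPKM in WT, with the highest sums in E7 and F5. The 10 hair cell markers, 78.3 to 122 FPKM in sum, and the 6 marginal cell markers, 111 to 179 FPKM, were detected in all 12 libraries with means above 0.5 FPKM, as the cochlea label implies. Transcripts of Dusp1 itself were more abundant under the KO label (61.9 to 81.5 FPKM against 29.5 to 60.8 FPKM in WT at 20 weeks, and 55.6 to 73.7 against 38.3 to 43.0 FPKM at 32 weeks), and a whole-gene FPKM does not show whether a transcript carries the disrupted allele. WT and KO are therefore the groups as labelled, and every direction below rests on the labels.

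In level, the genes formed 2 tiers. FPKM is scaled by transcript length, so levels can be set beside each other, although genes with several transcripts depend on how the authors split their reads. Over the 12 libraries Atp1b1 had a mean of 551 ± 40.1 FPKM (SD, n = 12), Atp1b3 347 ± 34.1 FPKM and Atp1b2 286 ± 35.3 FPKM. Each beta subunit lay above at least 98.5% of the tested genes, and only 118 genes of the table had a higher mean than Atp1b1. The calcium pumps were lower, with means of 26.7 ± 2.54 FPKM for Atp2b1, 22.6 ± 6.78 FPKM for Atp2b2, 10.7 ± 3.08 FPKM for Atp2b3 and 7.05 ± 1.56 FPKM for Atp2b4. Atp1b2, the lowest beta subunit, was 10.7 times as abundant as Atp2b1, the highest calcium pump. Atp1b1 exceeded Atp1b3 in 12 of 12 libraries and their ranges did not overlap. The neighbours Atp1b3 and Atp1b2, Atp2b1 and Atp2b2, and Atp2b3 and Atp2b4 kept their order in 11 of 12 libraries each, and all 3 pairs of ranges overlapped, as did those of Atp2b2 and Atp2b3, although Atp2b2 was higher in 12 of 12.

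**Figure D1:**
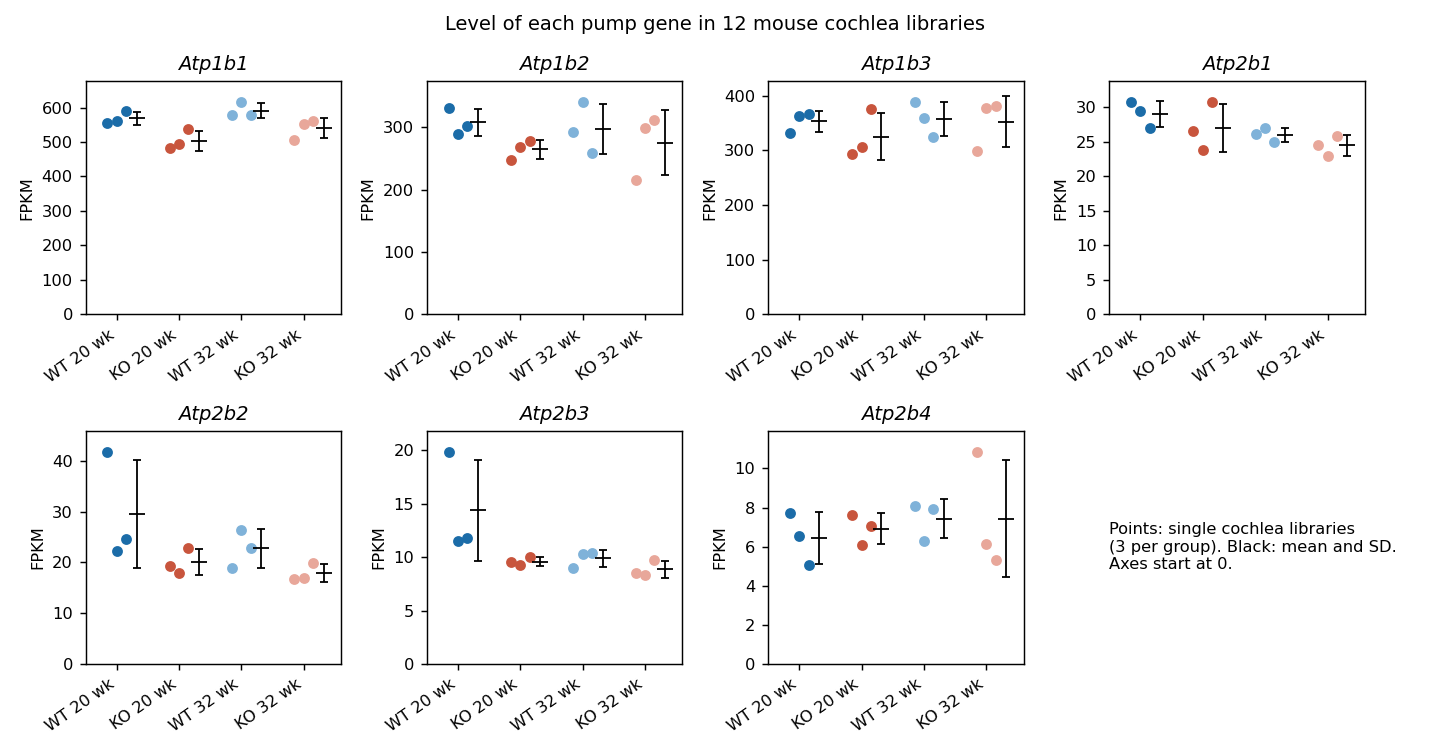
Level of each gene in FPKM (vertical axes, linear and starting at 0) in every library, by group; coloured points are single libraries and the black bar is the group mean with its SD (n = 3). The beta subunits sit between 216 and 615 FPKM, the calcium pumps between 5.07 and 41.8 FPKM, and the highest points of Atp2b2 and Atp2b3 are both library E1.

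The members lie on 6 chromosomes, none of them that of Dusp1, which is on chromosome 17 (build mm9, 26642536 to 26645417, minus strand). By the authors' annotation Atp1b1 runs from 166367230 to 166388486 on chromosome 1 (minus strand, 6 exons), Atp1b2 from 69413252 to 69419462 on chromosome 11 (minus, 7 exons) and Atp1b3 from 96233095 to 96264718 on chromosome 9 (minus, 7 exons). Atp2b1 spans 98377786 to 98488777 on chromosome 10 (plus, 21 exons), Atp2b2 113695662 to 113992074 on chromosome 6 (minus, 2 transcripts of 20 and 22 exons from 2 start sites), Atp2b3 70748425 to 70818609 on chromosome X (plus, 21 exons) and Atp2b4 135599251 to 135650324 on chromosome 1 (minus, 2 transcripts of 20 and 21 exons). Exons of Atp1b1 overlap those of Nme7 on the opposite strand, and an exon of Atp2b4 holds the microRNA gene Mir6903. The library kit keeps the strand, but no source used here gives the strand setting of the read assignment, so reads of Atp1b1 and Nme7 may have been shared.

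To show what lies in front of the genes the comparisons turn on, the 200 bases upstream of the start site are printed for the most abundant member, for the one member with the exact TATA box letters TATAAA, and for Atp2b2 and Atp2b3, whose levels moved together. They were read from the mouse genome of the same build, 5′ to 3′ on the strand of the gene, with matches to a searched motif in capitals. Both strands were searched for the cAMP response element (TGACGTCA), the AP-1 site (TGANTCA), the GC box (GGGCGG), the CCAAT box (CCAAT) and the TATA box (TATAAA), and matches in the printed windows do not overlap.

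Atp1b1, chr1:166388487-166388686, minus strand: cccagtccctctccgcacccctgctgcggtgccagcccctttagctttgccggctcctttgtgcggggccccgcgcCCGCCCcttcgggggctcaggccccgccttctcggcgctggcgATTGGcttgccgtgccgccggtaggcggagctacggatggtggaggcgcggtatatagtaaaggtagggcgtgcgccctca
Atp1b2, chr11:69419463-69419662, minus strand: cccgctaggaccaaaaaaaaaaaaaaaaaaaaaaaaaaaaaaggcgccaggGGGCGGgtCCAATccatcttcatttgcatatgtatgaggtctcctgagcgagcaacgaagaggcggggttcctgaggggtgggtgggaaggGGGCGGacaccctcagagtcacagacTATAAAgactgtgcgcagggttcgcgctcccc
Atp2b2, chr6:113841371-113841570, minus strand: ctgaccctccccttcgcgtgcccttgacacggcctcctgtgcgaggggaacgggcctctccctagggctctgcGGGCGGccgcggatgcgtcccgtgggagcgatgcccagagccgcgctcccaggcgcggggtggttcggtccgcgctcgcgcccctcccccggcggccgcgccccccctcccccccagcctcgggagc
Atp2b3, chrX:70748225-70748424, plus strand: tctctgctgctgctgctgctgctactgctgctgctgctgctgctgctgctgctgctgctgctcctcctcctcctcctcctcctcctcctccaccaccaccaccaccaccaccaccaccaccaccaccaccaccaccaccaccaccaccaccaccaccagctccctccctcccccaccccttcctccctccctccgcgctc

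Of the motifs searched, in their exact letters, Atp1b1 holds 1 GC box and 1 CCAAT box, both on the opposite strand. Atp1b2 holds 2 GC boxes and 1 CCAAT box, and its TATA box begins 32 bases before the start site. The start site of the shorter Atp2b2 transcript has 1 GC box, as does that of the longer one. The Atp2b3 window, made largely of CTG, CTC and CAC repeats, holds none of the 5 motifs and 2 CpG. The printed window of Atp2b2 holds 26 CpG, and that of its other start site 15. Of 26896 windows of the same length at all annotated start sites, 39.3% hold a GC box, 30.3% a CCAAT box, 9.44% a TATA box, 5.01% an AP-1 site and 1.87% a cAMP response element. No member window holds an AP-1 site or a cAMP response element in these letters.

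The comparison of KO with WT at each age asks which pump genes differ with the genotype. At 20 weeks 6 of the 7 members had a lower mean on the log2(FPKM + 0.5) scale in KO, and the largest differences were those of Atp2b3 and Atp2b2. None passed the test, limma on all 16276 genes with p adjusted by Benjamini and Hochberg, at 0.05 (0 of 7 members, smallest adjusted p = 0.203), where 0.0676% of all tested genes were called. At an unadjusted limma p under 0.05, 3 of 7 members were lower in KO (Atp1b1, Atp2b2 and Atp2b3) and none was higher, where 9.92% of all tested genes were lower at that p. In 3 of 7 members (Atp1b1, Atp1b2 and Atp2b3) every KO library lay below every WT library, which was so for 13.8% of all tested genes. The members' median difference was −0.18, against −0.027 for all tested genes. With so few members and libraries these counts describe the set and call nothing particular to it.

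Among the beta subunits, Atp1b1, the most widely expressed one, was at 556, 561 and 591 FPKM in WT and 481, 493 and 536 FPKM in KO at 20 weeks, and at 578, 615 and 577 FPKM in WT and 507, 552 and 561 FPKM in KO at 32 weeks. The KO libraries lay below all WT libraries of their age at both ages, which at 32 weeks held for 1 of 7 members and for 6.17% of all tested genes. The fitted difference was −0.18 ± 0.069 (limma SE) at 20 weeks (adjusted p = 0.228) and −0.13 ± 0.069 at 32 weeks (adjusted p = 0.962). The exact permutation p was 0.1 at each age, the smallest that 3 against 3 can give. With the genotype labels exchanged within each age and the difference averaged over both, −0.15, the exact two-sided p of Atp1b1 was 0.005, the smallest that 400 arrangements can give, and the adjusted p of limma was 0.214. With any 1 library left out this exact p was 0.005 or 0.01. As KO lay below WT at both ages, the observed arrangement stays the most extreme in its direction whichever library is left out. These values are therefore no separate check. The same exact test gave p = 0.14 for Atp1b2, 0.385 for Atp1b3, 0.155 for Atp2b1, 0.02 for Atp2b2, 0.01 for Atp2b3 and 0.9 for Atp2b4, 7 raw values beside the adjusted ones. Quantile normalization moved the 20-week difference to −0.355 (adjusted p = 0.147), and with the level of neutrophil markers as a covariate it was −0.043 (adjusted p = 0.909). With the same covariate the difference over both ages was −0.074 (limma adjusted p = 0.676). The neutrophil sums of KO and WT did not overlap at 20 weeks. Values with this covariate, here and below, therefore cannot tell genotype from neutrophil level at that age.

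Atp1b2, the beta subunit known from glia and neurons as an adhesion molecule, was at 332, 289 and 302 FPKM in WT and 247, 268 and 278 FPKM in KO at 20 weeks. At 32 weeks it was at 293, 340.0 and 259 FPKM in WT and 216, 298 and 311 FPKM in KO, where F5 was the lowest of all libraries and the groups overlapped. The differences were −0.22 ± 0.14 and −0.12 ± 0.14 (limma adjusted p = 0.440 and 0.979). Atp1b3 overlapped at both ages, with 331, 364 and 366 FPKM in WT against 294, 307 and 375 FPKM in KO at 20 weeks and 388, 360.1 and 325 FPKM against 299, 377 and 381 FPKM at 32 weeks. Its differences were −0.13 ± 0.12 and −0.03 ± 0.12 (limma adjusted p = 0.612 and 0.999), and the 95% interval at 20 weeks ran from −0.40 to 0.14. E7 and F5, the libraries with the most neutrophil marker RNA, were the lowest of their group in all 3 beta subunits, and without both the 32-week differences were 0.045 for Atp1b2 and 0.087 for Atp1b3, in place of values below 0. The part of neutrophil RNA in these differences was not tested further.

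Among the calcium pumps, Atp2b1, the housekeeping isoform found in nearly every cell, was at 30.7, 29.4 and 26.96 FPKM in WT and 26.6, 23.8 and 30.8 FPKM in KO at 20 weeks, and at 26.2, 26.98 and 24.9 FPKM in WT and 24.6, 23.0 and 25.9 FPKM in KO at 32 weeks. The groups overlapped at both ages, and the differences of −0.11 ± 0.092 and −0.09 ± 0.092 did not pass the limma test (adjusted p = 0.571 and 0.979). At 20 weeks the difference of Atp2b1 ran from −0.202 without F19 to −0.020 without F18. Atp2b4, the widely expressed isoform abundant in red cells and smooth muscle, was at 7.71, 6.53 and 5.07 FPKM in WT and 7.63, 6.06 and 7.06 FPKM in KO at 20 weeks, and at 8.07, 6.28 and 7.92 FPKM in WT and 10.8, 6.12 and 5.31 FPKM in KO at 32 weeks. Its highest value was that of F5, and it was the 1 member whose 20-week difference was above 0 (0.11 ± 0.24, limma adjusted p = 0.840), against −0.06 ± 0.24 at 32 weeks (adjusted p = 0.999). The sign at 20 weeks was not stable, and the difference was −0.041 without E4 and −0.638 with the neutrophil level as a covariate (both uncalled).

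Atp2b2, the pump of hair bundles and of many neurons, was at 41.8, 22.2 and 24.7 FPKM in WT and 19.3, 18.004 and 22.9 FPKM in KO at 20 weeks, so that F19 lay above the lowest WT library. At 32 weeks it was at 18.9, 26.5 and 22.9 FPKM in WT and 16.7, 17.03 and 19.98 FPKM in KO, where F27 lay above F1. The fitted differences were −0.50 ± 0.21 at 20 weeks (adjusted p = 0.261 in limma, rank 2654 of 16276 genes by p) and −0.33 ± 0.21 at 32 weeks (adjusted p = 0.964). Without E1 the 20-week difference was −0.223 (limma adjusted p = 0.572). Averaged over both ages it was −0.41 ± 0.15 (adjusted p = 0.239), with an exact p of 0.02, and without E1 it was −0.28 with an exact p of 0.03. The exact p of this average was 0.065 without E7 and 0.065 without F18, and 0.09 without E7 and F5 together. With the brain and brainstem marker level as a covariate the average was −0.172 (limma adjusted p = 0.579).

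Atp2b3, an isoform known chiefly from the brain, was at 19.9, 11.5 and 11.8 FPKM in WT and 9.52, 9.27 and 10.01 FPKM in KO at 20 weeks, and at 9.01, 10.3 and 10.4 FPKM in WT and 8.51, 8.33 and 9.79 FPKM in KO at 32 weeks. Every KO library lay below every WT library at 20 weeks, and the groups overlapped at 32 weeks. The difference at 20 weeks, −0.52 ± 0.17 (adjusted p = 0.203 in limma, rank 1107 of 16276), was the largest of the 7 members, and it was −0.269 without E1 (limma adjusted p = 0.402). With the brain and brainstem marker level as a covariate it was −0.193 (adjusted p = 0.628), and that of Atp2b2 −0.114 (adjusted p = 0.835). At 32 weeks it was −0.15 ± 0.17 (adjusted p = 0.979). Averaged over both ages it was −0.33 ± 0.12 (adjusted p = 0.239) with an exact p of 0.01, and −0.21 with an exact p of 0.015 without E1. With the brain and brainstem marker level as a covariate this average was −0.130 (limma adjusted p = 0.572). Without E7 and F5 together the exact p was 0.08. A list of 12 neuron markers summed to 1441 to 1705 FPKM in KO and 1891 to 1974 FPKM in WT at 20 weeks, the same order as Atp2b3. The part of brain tissue or of neurons in these differences was not tested beyond these values. The gene lies on the X chromosome, and in the 4 libraries with Xist above 1 FPKM (1 WT library of each age and 2 KO libraries of 32 weeks) it was at 8.33 to 11.8 FPKM, within the 8.51 to 19.9 FPKM of the other libraries but for its lowest value.

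**Figure D2:**
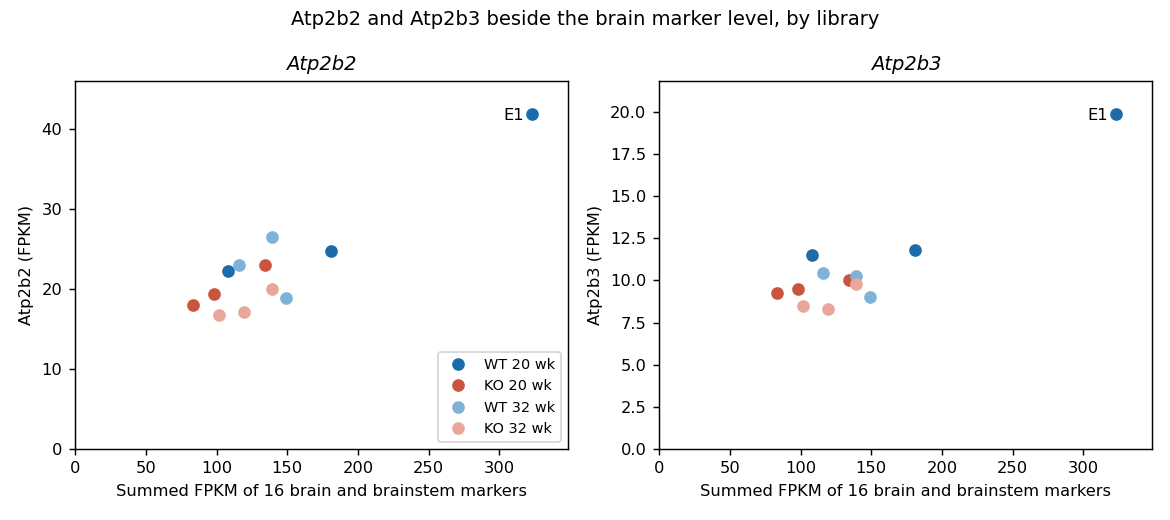
Atp2b2 (left) and Atp2b3 (right) in FPKM (vertical axes) against the summed FPKM of 16 brain and brainstem markers (horizontal axes), 1 point for each of 12 libraries, coloured by group. E1, at a marker sum of 323, carries the highest level of both pumps (41.8 and 19.9 FPKM), and the other libraries lie at marker sums of 83.4 to 181.

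At 32 weeks all 7 members had a lower mean in KO on the log2(FPKM + 0.5) scale, from −0.33 for Atp2b2 to −0.03 for Atp1b3, although the mean FPKM of Atp2b4 was 7.43 in both groups, with 0 of 7 called by limma and 0 of 7 at an unadjusted p under 0.05, where 0.0123% of all tested genes were called and 2.97% were lower at the unadjusted p. Averaged over both ages 0 of 7 were called (0.0799% of all tested genes) and 3 of 7, again Atp1b1, Atp2b2 and Atp2b3, were lower at the unadjusted p (9.66% of all tested genes). The genotype differences at the 2 ages were set against each other with the interaction term of the same fit, and 0 of 7 members were called (0.00614% of all tested genes) and 0 of 7 had an unadjusted p under 0.05 (4.68% of all tested genes). The largest interaction was that of Atp2b3, 0.37 ± 0.25 (adjusted p = 0.876), and 0.118 without E1.

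**Figure D3:**
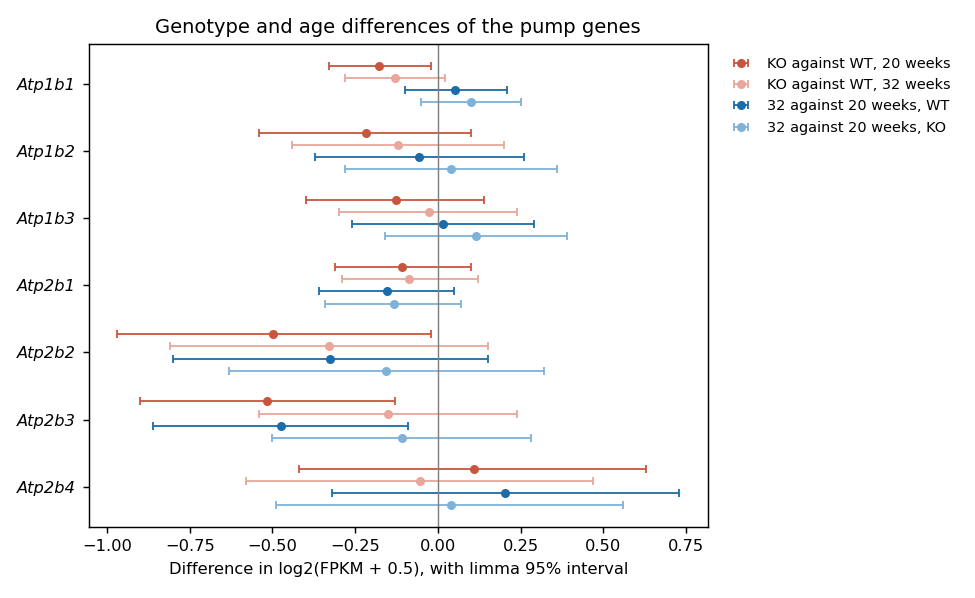
Difference of each gene in log2(FPKM + 0.5) (horizontal axis), KO against WT at 20 and 32 weeks and 32 against 20 weeks in WT and KO, as points with the 95% interval of the limma fit. The interval excludes 0 for Atp1b1, Atp2b2 and Atp2b3 in KO against WT at 20 weeks and for Atp2b3 in 32 against 20 weeks in WT, and none of these passed adjustment over all genes.

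The comparison of 32 with 20 weeks asks what differs with age in each genotype. In WT, 0 of 7 members were called by limma (0.0123% of all tested genes) and 1 of 7, Atp2b3, had an unadjusted p under 0.05 (7.84% of all tested genes, and 3.55% in its direction, lower), with −0.48 ± 0.17 (adjusted p = 0.630). Every 32-week WT library lay below every 20-week WT library in this 1 member, as in 8.80% of all tested genes, and without E1 the difference was −0.227. Atp2b2 was lower by a similar size, −0.33 ± 0.21 (adjusted p = 0.641), but by −0.053 without E1. In KO, 0 of 7 were called (0% of all tested genes) and 0 of 7 had an unadjusted p under 0.05 (12.6% of all tested genes), with differences from −0.16 for Atp2b2 to 0.12 for Atp1b3. These age differences share their libraries with the genotype differences and are not independent of them.

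How the isoforms divide each family was compared as shares of its summed FPKM. The 3 beta subunits kept nearly fixed proportions, with Atp1b1 at 46.6 ± 1.64% (SD, n = 12), Atp1b3 at 29.3 ± 1.40% and Atp1b2 at 24.1 ± 1.59%. Their KO minus WT differences, averaged over the ages, were −0.581, 1.18 and −0.594 percentage points, with exact permutation p of 0.51, 0.185 and 0.545. Among the calcium pumps Atp2b1 held 40.3 ± 3.49%, Atp2b2 33.2 ± 3.81%, Atp2b3 15.8 ± 1.62% and Atp2b4 10.7 ± 2.85%. The share of Atp2b2 was 36.5 ± 4.95% in WT and 31.5 ± 0.896% in KO at 20 weeks and 34.3 ± 3.75% and 30.5 ± 2.67% at 32 weeks (n = 3 each), a mean difference of −4.37 percentage points with an exact p of 0.045. That of Atp2b1 differed the other way, by 3.64 points (exact p = 0.05), and those of Atp2b3 and Atp2b4 by −1.29 (p = 0.14) and 2.02 points (p = 0.215), by the same exact test. These 7 raw p-values come from shares that add up to 100% within a family and are not independent. Leaving out E1 gave −3.07 points for Atp2b2 (exact p = 0.08), 1.96 points for Atp2b1 and −0.791 points for Atp2b3. The difference in the share of Atp2b4 was 0.703 points without F5 and 0.402 points without E7 and F5 together. The exact p of Atp2b2 also passed above 0.05, to between 0.055 and 0.095, without E4, E7, F18, F19, F10, F12, F5 or F6. That of Atp2b1 was 0.01 without E3 and 0.02 without F1, but 0.09 without E1 and 0.11 without E7 and F5 together.

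**Figure D4:**
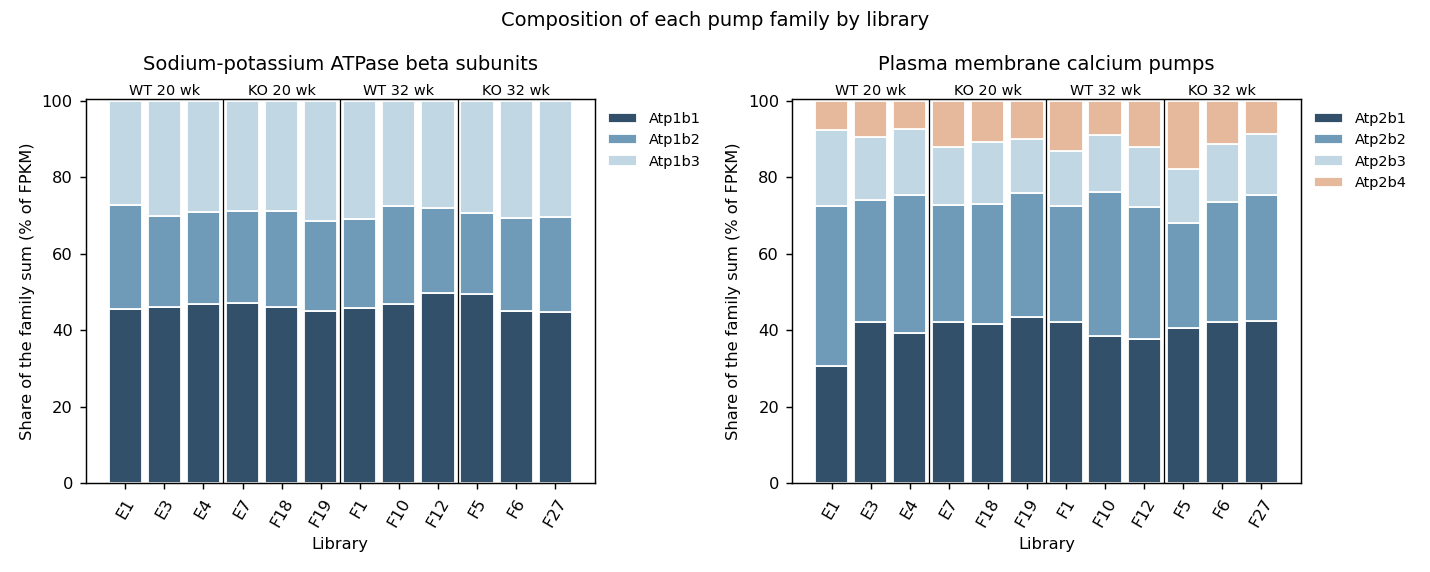
Share of each isoform in the summed FPKM of its family (vertical axis, percent) in each of the 12 libraries (horizontal axis), beta subunits on the left and calcium pumps on the right. Atp1b1 stays between 44.8 and 49.7% of the beta sum, and in E1 Atp2b2 reaches 41.7% and Atp2b1 drops to 30.7% of the calcium pump sum.

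Added up, the beta subunits came to 1184 ± 97.1 FPKM and the 4 calcium pumps to 67.0 ± 11.7 FPKM (SD, n = 12). In single libraries the beta sum was 12.2 to 22.5 times the calcium pump sum, lowest in E1.

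Whether members moved together was tested over the 12 libraries on the log2 scale for all 21 pairs, with 100000 permutations each. Pearson's r ran from −0.65 for Atp1b2 and Atp2b4 to 0.95 for Atp2b2 and Atp2b3, and 5 of 21 pairs had a Benjamini-Hochberg adjusted p under 0.05. For Atp2b2 and Atp2b3 the permutation p was 6.0e-05 (adjusted p = 0.0013), Spearman's rho was 0.92 (p = 6.0e-05, adjusted p = 0.0013), and r was 0.80 without the libraries farthest from the median of Atp2b2, E1 and F5. With the group means subtracted r was still 0.94, and without E1 alone it was 0.84. Atp2b1 went with both, at r = 0.72 with Atp2b2 (permutation p = 0.0047, adjusted p = 0.033; rho = 0.74, p = 0.0077, adjusted p = 0.073) and r = 0.69 with Atp2b3 (permutation p = 0.0041, adjusted p = 0.033; rho = 0.72, p = 0.010, adjusted p = 0.073). Without E1 and F19, the libraries farthest in Atp2b1, these were 0.64 and 0.76, and within groups 0.55 and 0.44.

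Atp1b1 went with Atp1b2 at r = 0.70 (permutation p = 0.011, adjusted p = 0.045; rho = 0.63, p = 0.032, adjusted p = 0.17) and with Atp1b3 at r = 0.71 (permutation p = 0.010, adjusted p = 0.045; rho = 0.50, p = 0.10, adjusted p = 0.27). Without E7 and F18 the first was 0.70 and the second 0.43, so the relation of Atp1b1 and Atp1b3 rests in part on those libraries, while within groups both were higher, 0.73 and 0.81. Atp2b4 had a negative r with each beta subunit (−0.35, −0.65 and −0.52), none past adjustment. All values of a library share its tissue and depth, and a correlation over libraries does not separate the cell mixture from the level per cell.

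The 3 tested genes whose pattern over the 12 libraries was most like each member, by Pearson's r on the log2 scale, are given as a description. They were Rab11fip3 (0.94), Msl3l2 (0.93) and Wbp4 (0.93) for Atp1b1, Tmem136 (0.95), Slc41a1 (0.93) and Slc13a4 (0.91) for Atp1b2, and Plekhb1 (0.95), Tspan15 (0.92) and Sdf4 (0.92) for Atp1b3. For Atp2b1 they were Man1a2 (0.96), Myo9a (0.95) and Cyld (0.95), and for Atp2b4 Far2 (0.90), Gm7609 (0.88) and Elp6 (0.87). Atp2b2 was nearest to Steap2 (0.97), Pclo (0.97) and Cacng2 (0.96), and Atp2b3 to Gria2 (0.99), Stxbp5l (0.98) and again Cacng2 (0.98). All 5 of these genes were higher in E1 than on average, Gria2 at 27.7 FPKM against a mean of 8.32 FPKM, and without E1 their r fell to values from 0.90 to 0.95.

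The other genes of the 2 pump systems were read from 9 lists chosen by function, 49 genes in all, of which 41 were tested. Limma called 0 of 41 at 20 weeks, at 32 weeks and over both ages, where 0.0676%, 0.0123% and 0.0799% of all tested genes were called. At an unadjusted p under 0.05, 7 of 41 were lower and 0 higher in KO at 20 weeks (9.92% and 8.23% of all tested genes), 1 lower and 1 higher at 32 weeks (2.97% and 2.21%), and 4 lower and 1 higher over both ages (9.66% and 7.75%). The median difference of the 41 was −0.17 at 20 weeks, 0.01 at 32 weeks and −0.08 over both ages, beside −0.18, −0.12 and −0.15 for the 7 members. Without E1, a comparison added after the data were seen, 7 of 41 were lower at the unadjusted p at 20 weeks (6.38% of all tested genes) with a median of −0.12. The counts below at the unadjusted p are for KO against WT at 20 weeks, and each stands beside the same 9.92% of all tested genes lower and 8.23% higher. With lists of 3 to 8 tested genes they describe the lists and no more.

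The divergent beta subunit Atp1b4 and the testis alpha subunit Atp1a4 were at means of 0.0638 and 0.0295 FPKM and were not tested.

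Of the FXYD proteins, small membrane proteins that tune the sodium-potassium ATPase, 6 of 7 were tested and 0 of 6 had an unadjusted p under 0.05 at 20 weeks, the nearest being Fxyd1 (−0.16 ± 0.12) and Fxyd6 (−0.20 ± 0.17). Of the beta subunit binding NKAIN proteins 1 of 3 tested, Nkain1, was lower at the unadjusted p (−0.93 ± 0.34, limma adjusted p = 0.221), with 14.1 FPKM in E1 against a WT median of 4.90 FPKM, and without E1 it was −0.43 ± 0.13 (adjusted p = 0.393). Nkain2 had −0.23 ± 0.21. The 3 related H,K-ATPase genes were at means of at most 0.121 FPKM and were not tested.

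Nptn, the neuroplastin that forms a complex with the calcium pumps, differed by −0.16 ± 0.068 at 20 weeks (limma adjusted p = 0.245). All KO libraries lay below all WT libraries at that age, and at 32 weeks they overlapped. The second such partner, Bsg, differed by −0.03 ± 0.097 (adjusted p = 0.918).

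Of the sodium-calcium exchangers, some of which move calcium out of the cell, 2 of 8 tested were lower at the unadjusted p at 20 weeks, Slc24a2 (43.0 to 45.6 FPKM in WT against 29.6 to 31.1 FPKM in KO, −0.54 ± 0.16, limma adjusted p = 0.191) and Slc8a1 (−0.46 ± 0.15, adjusted p = 0.200). Calb1, the calcium buffer calbindin, was lower at the unadjusted p by −1.20 ± 0.43 (adjusted p = 0.221), with 88.2 FPKM in E1 and 25.2 and 28.1 FPKM in the other 20-week WT libraries, and without E1 by −0.63 ± 0.29 (adjusted p = 0.427). Of the 4 buffers 1, Calb1, had an unadjusted p under 0.05 with all libraries in the fit and not without E1, and Pvalb had −0.44 ± 0.20 (limma adjusted p = 0.292). Among the intracellular calcium pumps Atp2a2 (−0.24 ± 0.11) and Atp2c2 (0.45 ± 0.22) came nearest, with 0 of 5 at the unadjusted p and limma adjusted p of 0.276 and 0.317. Of the 7 genes of strial potassium secretion 0 of 7 had an unadjusted p under 0.05, the smallest belonging to Kcnq1, a potassium channel of marginal cells (0.29 ± 0.13, limma adjusted p = 0.285).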

How the data were processed

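Polyadenylated RNA of whole cochleae was sequenced from stranded libraries as single-end reads. The submitters' processing notes name FastQC 0.10.1, TopHat2 2.0.10, Bowtie 1.0.0, SAMtools 0.1.19, Cufflinks 2.2.1 and build mm9. The authors deposited FPKM per gene and library, many with a lost decimal point. The point was restored by choosing the placing of the 3 values of a group whose mean equals the authors' deposited group FPKM (relative tolerance 2e-05), which had exactly 1 answer for all but 14 of 95804 gene and group pairs, changed 45 of the 84 values of the pump genes and left out 6 genes. FPKM hold no read numbers, so depth is unknown, and they add up to 500384 to 583073 per library. The annotation deposited by the authors (a file of another kind, coordinates) gave positions, and all 9 member start codons read ATG in the genome used. The authors' own fold changes, p-values and pathway scores were not used.

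Values were taken as log2(FPKM + 0.5), after a filter at 0.5 FPKM on the mean, into a limma 3.58.1 fit (R 4.3.3) of 4 group means with a variance trend, adjusted by Benjamini and Hochberg over all genes. The fold changes are therefore on that scale, which understates low genes. A brain or neutrophil marker level used as a covariate was the mean of log2(FPKM + 0.5) over the listed markers, not their summed FPKM. Exact two-sided permutation tests served single members and shares (Python 3.11.15, NumPy 2.4.6, pandas 2.3.3). The scripts were tested on simulated data. Members and lists were chosen with earlier results of these data known. The text names all members, the other subunits of the sodium-potassium ATPase, Nptn and Bsg, the 2 genes of each list with the smallest 20-week p, and the 3 genes most like each member. Some genes that this rule selects are not reported here. Family sums and motifs were added after the data were seen. Slc24a6 was matched as Slc8b1, and 2 red cell markers were not matched.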

Additional observations from a re-analysis of the deposited data

How the results depend on the processing

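No pump gene passed the adjusted limma threshold in any of the 6 contrasts under any alternative run, 26 for each contrast within an age or genotype and 25 for the average over both ages and the interaction (smallest adjusted p = 0.147, Atp1b1 at 20 weeks after quantile normalization), and no scaling moved the median of all genes by more than 0.028. The 928 single values under alternatives include the interaction of Atp2b3 and of no other member. Of these values 879 kept their sign and 49 changed it, all uncalled, and the cause was not tested. Depth is unknown, so what it limits cannot be given. No paired analysis was possible because the groups share no replicate numbers.

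Among KO against WT differences (log2), the neutrophil level as a covariate turned Atp1b2 to 0.184 at 20 weeks and 0.066 over both ages, Atp1b3 to 0.172 at 20 weeks, 0.025 at 32 weeks and 0.099 over both, and Atp2b4 to −0.638 at 20 weeks and −0.411 over both. At 20 weeks this covariate cannot be told apart from genotype. Sex from Xist turned Atp2b4 to −0.018 at 20 and 0.071 at 32 weeks, and array weights Atp1b3 to 0.033 at 32 weeks. Without E7 and F5 together Atp1b2 was 0.045 and Atp1b3 0.087 at 32 weeks, and over both ages Atp1b3 was 0.014 and Atp2b4 −0.153.

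Among 32 against 20 week differences in WT, quantile normalization gave −0.122 for Atp1b1 and −0.112 for Atp1b3, the code letter −0.043 and −0.190, array weights −0.052 for Atp1b3, the neutrophil level 0.121 for Atp1b2 and −0.128 for Atp2b4, and the brain level 0.017 for Atp1b2. In KO, Atp1b2 was −0.018 after quantile normalization, −0.058 with sex, −0.0070 with the code letter and −0.114 with the neutrophil level. Atp1b3 was −0.018 with sex and −1.6e-05 with the neutrophil level, and Atp2b4 −0.033 with array weights and −0.183 without E7 and F5. The code letter is the first letter of a library's code, E or F. In WT all libraries of 20 weeks are E and all of 32 weeks are F, so there it cannot be told apart from age. Its term rests only on E7 against F18 and F19, and E7 also has the highest neutrophil sum.

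Leaving out single libraries gave ranges that span 0 for Atp2b4, −0.041 (without E4) to 0.239 (E1) at 20 weeks, −0.345 (F5) to 0.137 (F27) at 32 weeks and −0.118 (F5) to 0.123 (F27) over both ages, and at 32 weeks for Atp1b2, −0.219 (F27) to 0.045 (F5), and Atp1b3, −0.094 (F12) to 0.087 (F5). For age in WT they ran from −0.159 (F10) to 0.038 (F12) for Atp1b2 and from −0.046 (F1) to 0.082 (F12) for Atp1b3, and in KO from −0.058 (F27) to 0.206 (F5) for Atp1b2 and from −0.252 (F5) to 0.230 (F27) for Atp2b4. The share of Atp2b2 ran from −5.53 (E3) to −3.07 points (E1), with an exact p above 0.05 without any of 9 of the 12 libraries, and −3.40 points without E7 and F5 (exact p = 0.17). That of Atp2b1 ran from 1.96 (E1) to 4.84 points (E3), that of Atp2b3 from −1.63 (E3) to −0.791 (E1) and that of Atp2b4 from 0.703 (F5) to 2.99 (F27), and among the beta subunits Atp1b1 ran from −1.38 (F5) to −0.0167 (F12), Atp1b2 from −0.973 (F12) to −0.0163 (F5) and Atp1b3 from 0.710 (F19) to 1.70 (F1).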
